A study of Mus musculus with 7 samples.

Results

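Knockdown of the histone methyltransferase G9a was compared with a control siRNA in C2C12, an established line of mouse skeletal myoblasts, which are muscle precursors that multiply in culture and form myotubes on differentiation. The comparison used 5 of the series' 7 arrays, which were the 2 Control arrays and the 3 siG9a arrays, and it was described across 22180 genes, each represented by its probe set with the highest mean signal. All cells were grown in the same medium with fetal bovine serum and all received an siRNA, so the Control group was transfected too. The other 2 arrays, from cells given an siRNA against the related enzyme GLP (siGLP), entered the fit and are given for comparison. The cells came from 1 line, and neither the siRNA sequences nor the time from transfection to harvest is given in the sources used here. The labels do not say whether arrays of a group came from separate cultures, and the spread that the p-values rest on is that between these samples alone and may be technical.

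G9a, encoded by Ehmt2, adds methyl groups to lysine 9 of histone H3, largely as a partner of GLP, encoded by Ehmt1. This mark is known for silencing genes in euchromatin. In muscle precursors G9a is known to restrain differentiation, in part by methylating the muscle regulator MyoD, and it also has reported roles in activation of genes.

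The arrays were close to each other as a whole. Across genes, which do not count as independent replicates, Pearson's r was 0.995 to 0.996 within the 2 groups (4 pairs) and 0.994 to 0.996 between them (6 pairs). The 7 myoblast markers examined, among them Myod1, Des and Cdh15, all lay above the array median in control, with log2 signals of 5.47 to 11.02. Of 26 markers of other cell types, 20 lay below the array median in control and 18 in siG9a. Their summed log2 signal was 109.7 and 110.8 in the control arrays and 109.9, 111.0 and 110.8 in the siG9a arrays. The leukocyte marker Ptprc, at 2.80 in control, and the fat marker Adipoq lay below the lower quartile of the arrays. The 26 ran from 2.80 to 8.32 in control, with a median of 4.16, so the highest lay within the range of the myoblast markers. By difference, 2 of the 26 lay higher and 2 lower in siG9a at an unadjusted p under 0.05. These included Krt14, at a difference of -0.55, Cd14, at 0.64, and Gfap, at 0.51. What part the markers have in any result was not tested.

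Ehmt2 was the first gene examined, since the siRNA was directed against it. Its log2 signal was 7.56 and 7.46 in the 2 control arrays and 6.31, 6.14 and 5.99 in the 3 siG9a arrays. All siG9a arrays lay below all control arrays, and Ehmt2 fell to 38.8% of the control level, a change of -1.37 on the log2 scale with an SE of 0.10 (adjusted p = 0.0308 by limma with Benjamini-Hochberg adjustment). The partner gene Ehmt1 gave 6.71 and 6.73 in control and 6.74, 6.60 and 6.53 in siG9a, which overlapped, with a difference of -0.09. Among the 21 measured genes of H3K9 methylation and demethylation other than Ehmt2, 2 lay higher and 2 lower at an unadjusted p under 0.05. Over all genes with a level above the median, the shares at that p were 8.83% higher and 6.55% lower. After Ehmt2 the smallest p-values belonged to the demethylase genes Kdm7a (0.64) and Phf8 (0.18) and to Cbx3 (-0.19), which encodes a reader of the mark; none of these 3 passed.

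Few genes passed the test over all genes. An adjusted p under 0.05 was reached by 6 of 22180 genes, which is 0.0271%, with 5 lower (0.0225%) and 1 higher (0.00451%). Without adjustment, 2333 genes (10.5%) had a p under 0.05, 1320 with higher signal (5.95%) and 1013 with lower signal (4.57%). In 3100 genes (14.0%) every siG9a array lay above both control arrays, and in 2599 (11.7%) every siG9a array lay below both, together 25.7% of all genes. Which side was larger depended on the scaling, with 3038 higher and 3426 lower after quantile normalization and 3111 and 3382 after cyclic loess. A lack of overlap is a description and not a test. With so few arrays it also occurs in genes that do not differ between groups. A log2 difference of 0.5 or more was found in 166 genes with higher and 122 with lower signal, of which 154 and 108 had arrays that did not overlap. A log2 difference of 1 or more was found in 14 genes with higher and 3 with lower signal, the latter Ehmt2, Tead2 and Smim11, all without overlap. The median absolute difference was 0.086 and the median SE 0.092, so that the typical gene differed by about its own error. The plot of difference against level shows the 6 genes that passed among the ranked genes.

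**Figure D1:**
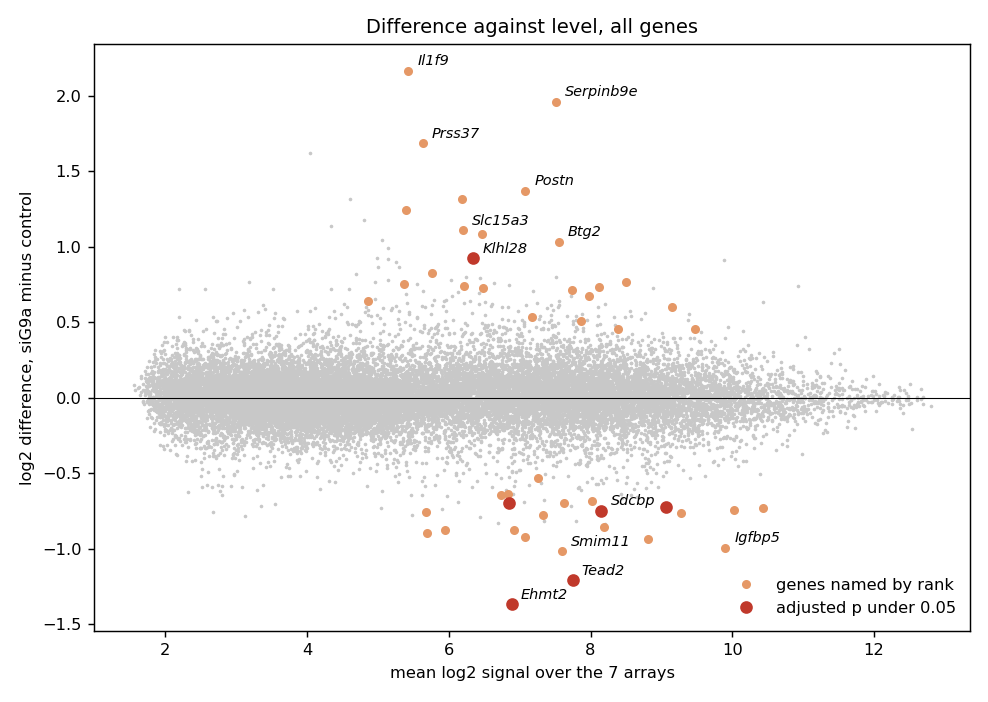
Log2 difference of siG9a minus control (vertical axis) against the mean log2 signal over the 7 arrays (horizontal axis) for 22180 genes; orange points are genes named by rank and red points are the 6 with an adjusted p under 0.05. Ehmt2 (-1.37) and Tead2 (-1.21) lie lowest of all, while the largest differences above 0, such as Il1f9 (2.17), did not pass.

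The upstream sequence of 4 of the 6 genes that passed is shown, and H3K9 methylation at these gene starts was not analysed. Sdcbp and Eif5a2 are left out, since no usable upstream stretch was available for them. The sequences are from RefSeq (GRCm38.p6), 5′ to 3′ on the gene's strand, and end just before the most upstream annotated start of the gene. Capitals mark E-boxes, here any match to CANNTG, whose middle bases are free. The matches read CACGTG in Ehmt2 and Klhl28 and CAATTG in Api5, and binding by MyoD or any other factor was not tested.

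Ehmt2, chr17:34898224-34898462, plus strand: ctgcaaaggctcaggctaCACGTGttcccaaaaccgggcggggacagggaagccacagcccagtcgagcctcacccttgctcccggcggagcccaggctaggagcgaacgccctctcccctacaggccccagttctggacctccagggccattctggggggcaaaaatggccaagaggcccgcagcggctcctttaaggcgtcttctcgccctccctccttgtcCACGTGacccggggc

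Tead2, chr7:45215542-45215791, plus strand: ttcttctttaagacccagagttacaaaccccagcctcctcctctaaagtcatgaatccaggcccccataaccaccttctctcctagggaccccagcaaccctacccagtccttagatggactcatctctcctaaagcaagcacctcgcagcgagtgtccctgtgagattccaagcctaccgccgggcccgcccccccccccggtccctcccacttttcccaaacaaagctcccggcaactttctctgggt

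Klhl28, chr12:64965582-64965786, minus strand: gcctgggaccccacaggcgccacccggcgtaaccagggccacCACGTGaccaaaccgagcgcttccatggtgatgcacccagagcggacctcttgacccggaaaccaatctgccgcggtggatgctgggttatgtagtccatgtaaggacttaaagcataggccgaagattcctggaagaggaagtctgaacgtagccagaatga

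Api5, chr2:94438187-94438436, minus strand: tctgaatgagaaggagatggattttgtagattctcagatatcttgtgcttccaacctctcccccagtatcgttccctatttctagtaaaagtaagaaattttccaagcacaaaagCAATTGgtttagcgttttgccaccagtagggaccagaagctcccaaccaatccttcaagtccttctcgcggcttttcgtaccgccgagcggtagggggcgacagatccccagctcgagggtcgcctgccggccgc

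The stretches are 239, 250, 205 and 250 bases long in that order. Ehmt2 holds 2 E-boxes, Klhl28 and Api5 hold 1 each and Tead2 holds 0. Over 32851 promoters, 64.8%, 66.2%, 59.8% and 66.2% held an E-box in windows of the same lengths, so such a match is common. The TEAD motif CATTCC, searched on both strands as CATTCC and GGAATG, occurs in 0 of the 4, against 12.2%, 12.6%, 10.9% and 12.6% of all promoters. The dinucleotide CG occurs 14 times in Ehmt2, 7 in Tead2, 12 in Klhl28 and 13 in Api5, against medians of 5, 6, 4 and 6 over all promoters. At least as many occurred in 27.4%, 46.3%, 25.3% and 31.5% of all promoters, so such counts are not rare. These matches describe the letters of the windows and are not evidence of binding or methylation.

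Tead2 encodes one of the TEAD factors, which bind DNA for the Hippo pathway together with the co-activators YAP and TAZ. Its log2 signal was 8.29 and 8.26 in control, 7.06, 7.21 and 6.93 in siG9a, and 8.16 and 8.32 in siGLP. The groups did not overlap, the highest siG9a array lay well below the lowest of the other arrays, and Tead2 fell to 43.3% of the control level (log2 difference -1.21, SE 0.10; limma adjusted p = 0.0308). Its paralogs gave smaller values. Tead1 stood at -0.20 and Tead4 at 0.11, both without overlap, and Tead3 at -0.23 with overlap, and none of the 3 passed. Of the 26 measured Hippo genes and YAP-TEAD targets other than Tead2, 4 lay lower and 1 higher at an unadjusted p under 0.05. These included Wwtr1, which encodes TAZ (-0.31), the upstream regulator Nf2 (-0.34) and Amotl1, whose product binds YAP (-0.32). At that p, 6.55% of all genes above the median level lay lower and 8.83% higher. Yap1 itself stood at -0.10 with overlapping arrays. The median of the 27 genes, Tead2 included, was -0.0007 against 0.0052 over all genes.

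Sdcbp encodes syntenin, a scaffold that binds the tails of syndecans and takes part in exosome formation. It gave 8.43 on both control arrays, 7.65, 7.73 and 7.68 in siG9a, and 8.59 and 8.56 in siGLP. Spread within each group was small beside the gap, and Sdcbp fell to 59.5% of control (log2 difference -0.75, SE 0.06; limma adjusted p = 0.0308). Of the 21 genes of syndecans and exosome formation other than Sdcbp, 5 lay higher and 2 lower at an unadjusted p under 0.05. For all genes above the median level these shares were 8.83% and 6.55%. The surface proteoglycan genes Sdc1 (-0.26) and Gpc1 (-0.23) lay below control, while Chmp4b, a subunit of the membrane-cutting ESCRT machinery, stood at 0.32 and Pdcd6ip, which encodes the syntenin partner ALIX, at 0.17. All 4 had arrays that did not overlap and none passed.

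Api5 encodes an inhibitor of apoptosis. Its log2 signal was 9.39 and 9.41 in control, 8.71, 8.66 and 8.66 in siG9a, and 9.37 and 9.24 in siGLP. The groups were separate, and Api5 fell to 60.7% of control (log2 difference -0.72, SE 0.07; limma adjusted p = 0.048). Of the other 29 apoptosis regulators measured, 6 lay higher and 1 lower at an unadjusted p under 0.05, with 12 and 4 without overlap. The shares of all genes above the median level were 8.83% and 6.55% at that p, and 19.4% and 15.9% without overlap. The median of the list, Api5 included, was 0.0879, and 0.0436 without Control 1. After Api5 the smallest p-values belonged to the mitophagy receptor gene Bnip3 (0.53), the caspase inhibitor gene Xiap (0.35) and Casp6, an executioner caspase (-0.23), none of which passed.

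Eif5a2 is the less abundant paralog of Eif5a, whose product eIF5A helps ribosomes through difficult peptide bonds. It gave 7.15 and 7.16 in control, 6.46, 6.48 and 6.44 in siG9a, and 7.07 and 7.19 in siGLP. With replicates this close, Eif5a2 fell to 61.7% of control (log2 difference -0.70, SE 0.06; limma adjusted p = 0.048). Eif5a stood at -0.14 without overlap. The genes of the 2 enzymes that make hypusine, the modified residue eIF5A needs, overlapped between groups, with Dhps at 8.57 and 8.68 in control and 8.67, 8.63 and 8.72 in siG9a, and Dohh at 5.67 and 5.93 against 5.76, 5.74 and 5.74. Of 35 translation initiation and elongation factors, Eif5a2 included, 25 lay below control (71.4%), against 46.8% of all genes above the median level. Without Eif5a2, 3 of 34 lay lower and 1 higher at an unadjusted p under 0.05. Among all genes above the median level, 6.55% lay lower and 8.83% higher at that p. Eif2s2, a subunit of eIF2, stood at -0.38, Eif4e3 at -0.26 and Eif4g2 at -0.22.

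Klhl28, a kelch-like gene of a family whose products often act as adaptors of CUL3 ubiquitin ligases, was the single gene with higher signal that passed. Its log2 signal was 5.86 and 5.79 in control, 6.83, 6.72 and 6.70 in siG9a, and 6.30 and 6.23 in siGLP. The siG9a arrays lay highest and the siGLP arrays between the other groups. Against control Klhl28 rose 1.90-fold, or 0.93 on the log2 scale with an SE of 0.07 (adjusted p = 0.0308, limma). Of the 30 kelch-like and CUL3 adaptor genes other than Klhl28, 5 lay higher and 2 lower at an unadjusted p under 0.05. Among them were Klhl5 (-0.58), Klhl23 (-0.55) and Kbtbd8 (0.32), which did not pass. All genes above the median level had shares of 8.83% higher and 6.55% lower at that p.

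**Figure D2:**
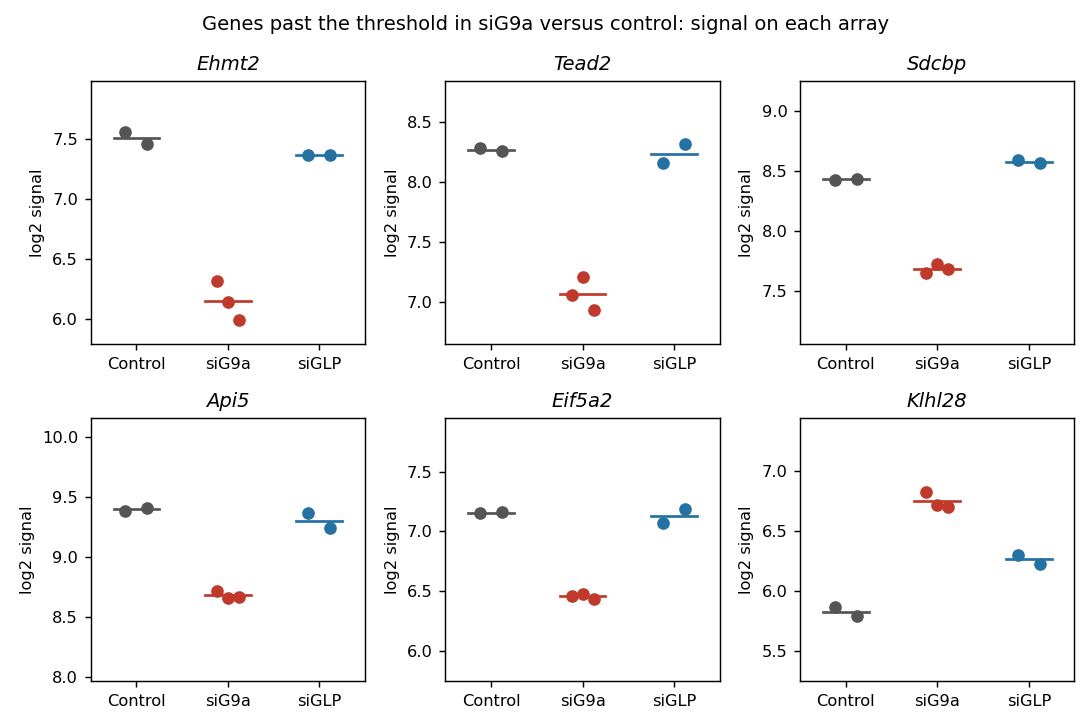
Log2 signal of the 6 genes with an adjusted p under 0.05 on each of the 7 arrays, by group (Control, siG9a, siGLP), with 1 point per array and a bar at each group mean. The siG9a points lie apart from the control points in all 6, and the siGLP points lie near the control points in the 5 genes that fell and between the other groups in Klhl28 (siGLP minus control 0.44).

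The siGLP arrays were then used to ask which of these differences were also present against the siGLP knockdown. The contrast of siG9a minus siGLP shares the siG9a arrays with the comparison above, and siGLP minus control shares the control arrays, so the values are given side by side. At an adjusted p under 0.05, siG9a differed from siGLP in 52 genes (0.234%), 30 lower (0.135%) and 22 higher (0.0992%) in siG9a. All 5 genes that passed with lower signal against control were among the 30, Ehmt2 at -1.22, Tead2 at -1.17, Sdcbp at -0.89, Eif5a2 at -0.67 and Api5 at -0.63 (limma, Benjamini-Hochberg adjusted p from 0.0176 to 0.0356). Klhl28 differed by 0.48 and did not pass (limma adjusted p = 0.0638), with a siGLP minus control value of 0.44.

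The genes that followed by p-value on the lower side are described next, and none of them passed against control. Fzd3, a Wnt receptor gene, gave 5.99 and 6.04 in control and 5.23, 5.22 and 5.31 in siG9a, a difference of -0.76 (SE 0.07; limma adjusted p = 0.0554). Dcp1a, which encodes a cofactor of mRNA decapping, gave 8.31 and 8.30 against 7.65, 7.68 and 7.54, a difference of -0.68 (SE 0.07; limma adjusted p = 0.0585). Twf1, which encodes the actin-binding protein twinfilin, gave 10.25 and 10.39 against 9.55, 9.67 and 9.52, a difference of -0.74 (SE 0.08; limma adjusted p = 0.0609). In each of these genes the groups were separate, and each was also lower than in siGLP at an adjusted p under 0.05, by -0.75 for Fzd3, -0.68 for Dcp1a and -0.84 for Twf1 (limma adjusted p = 0.0347, 0.0356 and 0.0328).

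Further genes of this rank had limma adjusted p of 0.0609 to 0.0739. Qtrt2, a subunit of the enzyme that places queuine in tRNA, stood at -0.78, and Nono, an RNA-binding protein gene of paraspeckles, at -0.73. The RNA-binding protein gene Rbms3 stood at -0.64. Ski, a co-repressor of SMAD signalling known in muscle growth, stood at -0.53, the BMP effector gene Smad5 at -0.63, and Etv5, an ETS factor gene downstream of growth factor signalling, at -0.70. Dnajc9, a co-chaperone gene that works with histones, stood at -0.76. Ski, Etv5 and Dnajc9 were also below siGLP past the threshold (limma adjusted p = 0.0409, 0.0366 and 0.0356), while Qtrt2, Nono, Rbms3 and Smad5 did not pass there (0.0577, 0.0823, 0.069 and 0.111). Over the 15 lower genes with the smallest p-values, 11 passed against siGLP, and their siGLP minus control values lay between -0.253 and 0.146.

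The genes with the smallest p-values for higher signal after Klhl28 also failed to pass against control. Ssx2ip, which encodes a protein of centrosomes and cell junctions, gave 7.54 and 7.52 in control, 8.17, 8.19 and 8.24 in siG9a, and 8.14 and 8.01 in siGLP. The siGLP arrays were nearly as high as the siG9a arrays, and the difference from control was 0.67 (SE 0.07; limma adjusted p = 0.0585). Aldh6a1, an enzyme gene of valine breakdown, gave 5.23 and 5.44 in control and 6.16, 6.12 and 6.18 in siG9a, a difference of 0.83 (SE 0.09; limma adjusted p = 0.0617). As the mean of its probe sets, the difference of Aldh6a1 was 0.68 (limma adjusted p = 0.104). Nmnat2, which encodes an enzyme of NAD synthesis known from axon survival, gave 8.15 and 8.12 against 8.92, 8.80 and 9.00, a difference of 0.77 (SE 0.09; limma adjusted p = 0.073). Crebrf, a gene that responds to nutrient state, gave 4.93 and 5.01 against 5.77, 5.61 and 5.81, a difference of 0.76 (SE 0.08; limma adjusted p = 0.067).

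The following 10 genes are given by what they encode. Bloc1s4, a subunit of the BLOC-1 complex of lysosome-related organelles, stood at 0.73, C9orf72, whose product acts in autophagy and endosomal traffic, at 0.53 (0.27 as the mean of its probe sets), the secretory carrier gene Scamp5 at 0.51 and the autophagy regulator gene Trp53inp2 at 0.72. Others were the mitotic checkpoint ligase gene Chfr (0.73), Rundc3a (0.74), the co-activator gene Pnrc1 (0.64), Ostf1 (0.60), the tetraspan protein gene Emp2 (0.46) and Vbp1, a subunit of the prefoldin chaperone (0.45). These 10 had limma adjusted p of 0.0739 to 0.106. Of the 15 higher genes with the smallest p-values, 0 passed against siGLP, although 14 had siG9a arrays that did not overlap the siGLP arrays. Their siGLP minus control values lay between 0.077 and 0.664. Bloc1s4 was nearly equal in the 2 knockdowns, with 0.73 in siG9a and 0.66 in siGLP.

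**Figure D3:**
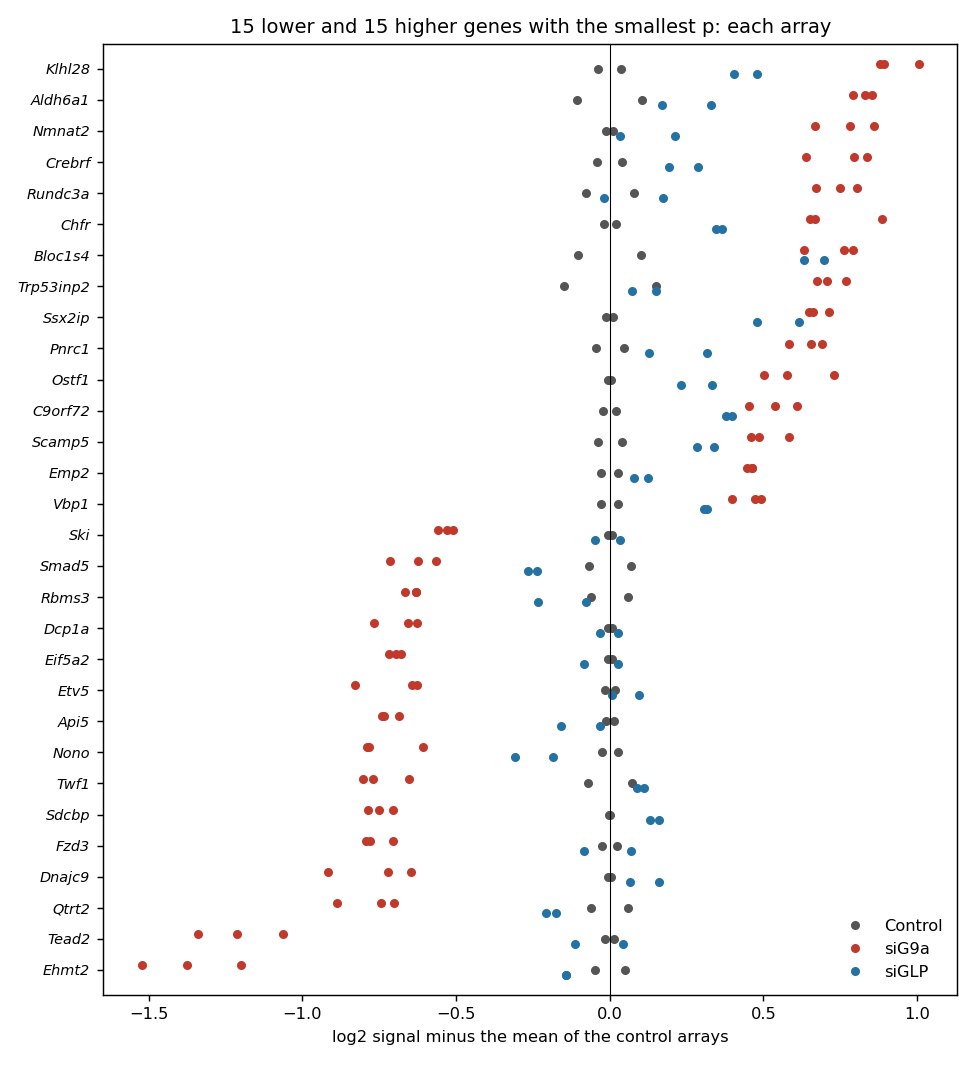
Log2 signal minus the mean of the control arrays (horizontal axis) on each of the 7 arrays for the 15 lower and 15 higher genes with the smallest p-values, 1 point per array and colours by group. In the lower genes, such as Fzd3 (siGLP minus control -0.01), the siGLP points lie mostly near the control points, and in many of the higher genes, such as Ssx2ip (0.55), they lie on the side of the siG9a points.

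Genes were also ranked by size rather than by p, among genes whose mean over the 7 arrays lay above the median of gene means, 4.985. This mean includes the siG9a arrays, and Il1f9, Prss37 and Serpinb9d, whose control means lay below it, passed it only through the knockdown arrays. The largest differences were above 0 and had wide replicate spread. Il1f9, which encodes the cytokine IL-36 gamma, gave 3.78 and 4.87 in control, 6.23, 6.42 and 6.84 in siG9a, and 4.72 and 5.13 in siGLP. The siG9a arrays lay above all others (log2 difference 2.17, SE 0.33; limma adjusted p = 0.108). The 2 control arrays differed by more than a log2 unit and their mean lay below the array medians, so a control signal above background is not shown for Il1f9 and no fold is given. Postn, which encodes the matrix protein periostin, gave 5.79 and 6.76 in control and 7.91, 7.35 and 7.68 in siG9a (log2 difference 1.37, SE 0.28; limma adjusted p = 0.17), and the difference was 0.88 without Control 1. Btg2, an anti-proliferative p53 target, gave 7.31 and 6.75 against 8.54, 7.80 and 7.85 (1.03, SE 0.27; limma adjusted p = 0.248). Nap1l2, a nucleosome assembly gene, gave 5.47 and 6.25 against 6.79, 6.99 and 7.08 (1.09, and 0.70 without Control 1). The lysosomal transporter gene Slc15a3 gave 5.73 and 4.81 against 6.84, 6.03 and 6.28 (1.11, and 0.65 without Control 2). In both genes the difference thus depended on which control array was kept, and siGLP minus control was 0.49 for Nap1l2 and 1.59 for Slc15a3. Prss37, a gene of the protease family known from testis, gave 4.59 and 4.31 against 7.14, 5.21 and 6.06 (1.69, SE 0.61, limma adjusted p = 0.399). Its control mean, like that of Il1f9, lay below the array medians. The tryptase gene Tpsab1 gave 5.34 and 5.30 against 7.10, 5.89 and 6.93 (1.32, SE 0.41, limma adjusted p = 0.328). The siGLP minus control values of Prss37 and Tpsab1 were 1.60 and 1.05.

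Serpinb9e and its relatives formed a group by sequence. The Serpinb9 genes encode inhibitors of granzyme B and related proteases, and they were grouped after their values were seen. Serpinb9e gave 5.74 and 6.41 in control, 8.15, 7.40 and 8.57 in siG9a, and 8.51 and 7.78 in siGLP. The groups given either knockdown siRNA were high and the control arrays low (siG9a minus control 1.96, SE 0.38; limma adjusted p = 0.157). All 7 measured Serpinb9 genes lay above control without overlap, with differences of 0.198 to 1.961 and a median of 0.898. None of the 7 passed, and in siGLP the same 7 differed from the shared control arrays by 0.332 to 2.07. These genes are near-identical copies, so probes may share signal among them and they are not independent values. Among 18 other Serpinb genes the median was 0.078, with a range of -0.211 to 1.32. Of these, 14 were higher, 5 of them without overlap, and 4 were lower, 1 of them without overlap.

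The largest differences below 0 after Ehmt2 and Tead2 included Smim11, a small membrane protein gene, which gave 7.99 and 8.03 in control and 7.12, 7.18 and 6.69 in siG9a (log2 difference -1.01, SE 0.15; limma adjusted p = 0.106). Igfbp5, which encodes a binding protein of insulin-like growth factors made by myoblasts, gave 10.89 and 10.45 against 10.24, 9.69 and 9.10 (-0.99, SE 0.31; limma adjusted p = 0.33). It was as low in siGLP, at 9.51 and 9.42. Rtca, an RNA cyclase gene, stood at -0.94 (SE 0.12; limma adjusted p = 0.0812; -0.60 as the mean of its probe sets) and Tomm7, a subunit of the mitochondrial import pore, at -0.92 (SE 0.12; limma adjusted p = 0.09). Both Rtca and Tomm7 lay below siGLP past the threshold, by -1.03 and -0.95 (limma adjusted p = 0.0409 and 0.0485).

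Genes were next read by function, in 36 lists that held 1004 measured symbols. Apart from the 6 genes above, no member of any list passed against control, and each list is described by counts. In 31 of the lists the median member lay above the 50th percentile of level, so the shares among genes above the median level are the nearer reference for these. Of those 11089 genes, 8.83% lay higher and 6.55% lower at an unadjusted p under 0.05, 19.4% were higher and 15.9% lower without overlap, and the median difference was 0.0104. By direction alone, 46.8% of these genes and 48.0% of all genes lay below control. The RNA came from whole cultures, so fewer cells in a state and less RNA per cell cannot be told apart.

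**Figure D4:**
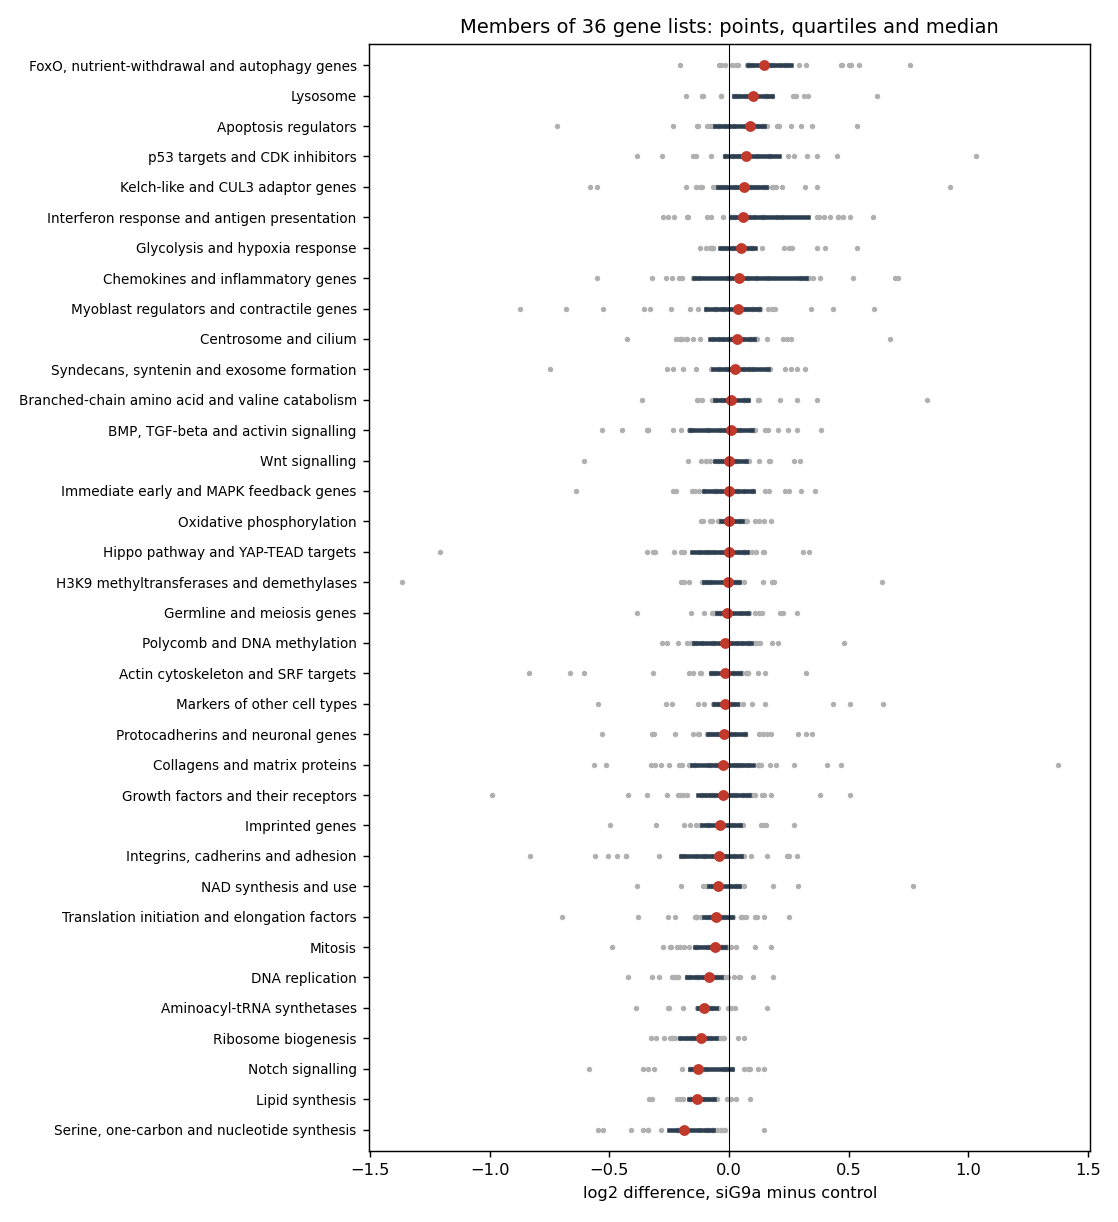
Log2 difference of siG9a minus control for every measured member of 36 gene lists, ordered by median, with grey points for genes, a dark bar from the lower to the upper quartile and a red point at the median. Serine, one-carbon and nucleotide synthesis lies lowest (median -0.189) and the FoxO, nutrient-withdrawal and autophagy list highest (0.1443), while lists such as oxidative phosphorylation (-0.0007) centre on 0.

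Biosynthetic genes lay mostly below control. Of 27 genes of serine, one-carbon and nucleotide synthesis, 26 were lower, 13 at an unadjusted p under 0.05 and 19 without overlap, and the median was -0.189. Umps, which completes uridine monophosphate, gave 9.12 and 9.11 in control and 8.92, 8.90 and 8.89 in siG9a, a small difference of -0.21 with tight replicates. Mthfd2, an enzyme gene of mitochondrial folate metabolism, gave 8.35 on both control arrays and 7.93, 7.92 and 7.97 in siG9a (-0.41). Phgdh, the first enzyme of serine synthesis, stood at -0.55 and Mthfd1l at -0.34. Ribosome biogenesis followed the same side. Of 29 genes, 27 were lower, 6 at an unadjusted p under 0.05 and 17 without overlap, with a median of -0.1153. Nolc1, a nucleolar scaffold gene, stood at -0.33, Polr1a, the large subunit of RNA polymerase I, at -0.31, Pes1 at -0.27 and Mybbp1a at -0.23.

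Of 18 aminoacyl-tRNA synthetase genes, whose products load amino acids onto tRNA, 15 were lower, 4 at an unadjusted p under 0.05 and 11 without overlap (median -0.1024, and -0.0675 without Control 1). The genes for the tryptophan, isoleucine, leucine and tyrosine enzymes, Wars (-0.39), Iars (-0.26), Lars (-0.25) and Yars (-0.19), had the smallest p-values. Of 23 lipid synthesis genes, 20 were lower, 2 at an unadjusted p under 0.05 and 8 without overlap (median -0.1333, and -0.0656 without Control 2), with Acaca, the rate-limiting enzyme of fatty acid synthesis, at -0.22, Elovl6 at -0.32, Acly at -0.16 and Mvd at -0.20. DNA replication (31 of 36 lower, 9 at an unadjusted p under 0.05, median -0.083) and mitosis genes (29 of 33 lower, 6 at that p, median -0.0564) lay on the same side, led by the clamp loader gene Dscc1 (-0.42) and by Hmmr (-0.49). Oxidative phosphorylation genes did not share this side, with 15 of 31 higher, 16 lower and a median of -0.0007.

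Genes tied to nutrient withdrawal lay mostly above control. Of 32 genes of FoxO targets, nutrient response and autophagy, 28 were higher, 10 at an unadjusted p under 0.05 and 13 without overlap, and 0 were lower by either measure. The median was 0.1443. After Crebrf the smallest p-values belonged to Ulk2, a kinase gene of autophagy initiation (0.55), Fbxo32, which encodes the muscle ubiquitin ligase atrogin-1 (0.47), and Ccng2, a FoxO target (0.51). Of 23 lysosome genes, 18 were higher, 5 at an unadjusted p under 0.05 and 11 without overlap, against 1 and 2 lower. The median was 0.1005, and 0.0531 without Control 1 or 0.1509 without Control 2. Cd68 stood at 0.62, the proton pump subunit gene Atp6v0d1 at 0.33, the lysosomal peptidase gene Tpp1 at 0.31 and the calcium channel gene Mcoln1 at 0.27. Cd68 is also a macrophage marker. Among markers of other cell types the monocyte marker Cd14 gave 7.01 and 7.20 in control and 7.73, 7.54 and 7.98 in siG9a (0.64), the leukocyte marker Ptprc was in the lower quartile of the arrays, and their part in the lysosome counts was not tested.

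The side of these lists was the same on each siG9a array. Against the control mean, the median of the serine, one-carbon and nucleotide list was -0.1471, -0.1496 and -0.1649 on the 3 siG9a arrays and -0.1275 and -0.0907 on the siGLP arrays. Ribosome biogenesis gave -0.12, -0.1069 and -0.101 in siG9a, and -0.134 and -0.0313 in siGLP. The FoxO, nutrient and autophagy list gave 0.1646, 0.17 and 0.0898 in siG9a, and 0.0602 and 0.0412 in siGLP, where one control array stood at 0.0387. Both biosynthetic lists thus lay below the control mean in the siGLP arrays too, measured against the same control arrays. For ribosome biogenesis, however, the second siGLP array, at -0.0313, was close to Control 1, at -0.023.

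**Figure D5:**
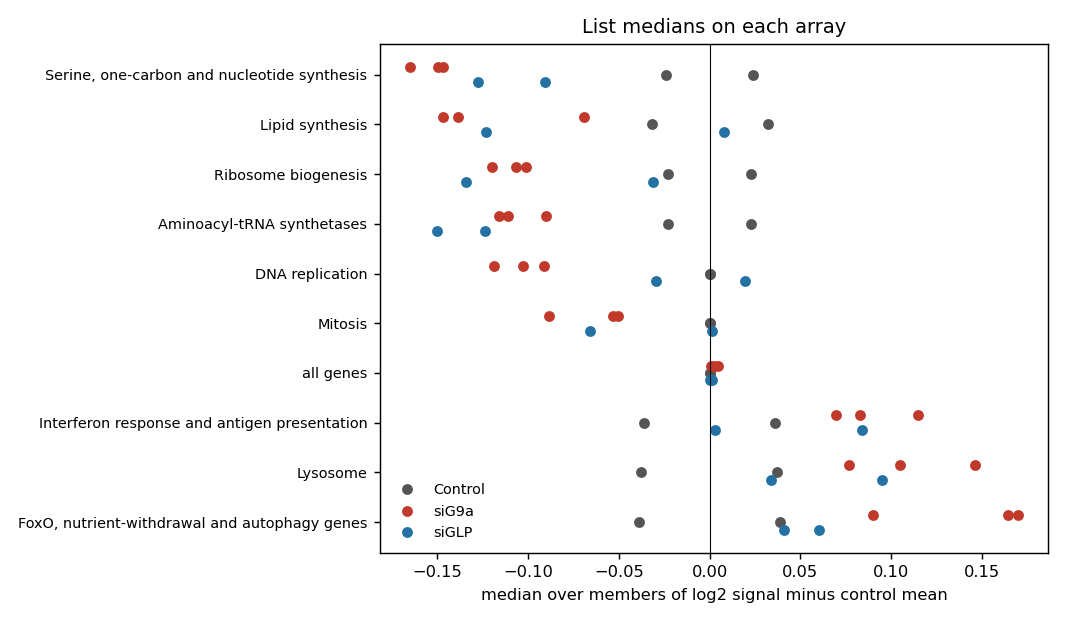
Median over list members of the log2 signal minus the control mean (horizontal axis) on each of the 7 arrays for 9 gene lists and all genes, 1 point per array and colours by group. For the serine, one-carbon and nucleotide list the siG9a arrays lie between -0.1649 and -0.1471, and the all-gene medians lie within 0.0048 of 0.

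Cell cycle brakes and immune genes held more higher than lower members. Of 23 p53 targets and CDK inhibitors, 4 were higher and 0 lower at an unadjusted p under 0.05, with 8 and 3 without overlap (median 0.0698, and 0.0303 without Control 2). Cdkn1a, which encodes the CDK inhibitor p21, gave 11.34 and 11.26 in control and 11.64, 11.58 and 11.64 in siG9a (0.33). The pocket protein gene Rbl2 stood at 0.37 and Cdkn1b, which encodes p27, at 0.25. Of 34 genes of the interferon response and antigen presentation, 8 were higher and 0 lower at an unadjusted p under 0.05, with 12 and 1 without overlap (median 0.0595, and 0.1397 with genes under the median level removed), in a list whose median member lay below the 50th percentile of level. Tapbp, which encodes the peptide-loading factor tapasin, gave 7.77 and 7.74 in control, 8.28, 8.12 and 8.23 in siG9a, and 7.23 and 7.33 in siGLP. Tapbp thus stood above control in siG9a (0.45) and below it in siGLP (-0.48), and siG9a minus siGLP was 0.93 and passed (limma adjusted p = 0.0277). Chemokine and inflammatory genes were split, with 4 higher and 2 lower of 28 at that p, among them Il33 at -0.55 (5.86 and 5.83 in control, 5.18, 5.30 and 5.39 in siG9a), Cxcl12 at -0.32, Tnfrsf1b at 0.38 and Rela at 0.30.

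Developmental signalling genes were read in lists of the Notch, BMP and TGF-beta, Wnt and growth factor pathways. Of 21 Notch genes, 6 were lower and 0 higher at an unadjusted p under 0.05, with 8 and 1 without overlap (median -0.1283). The median was -0.0444 without Control 1 and -0.0805 without Control 2, and it was -0.003 on the first siG9a array. The receptor gene Notch1 gave 7.41 and 7.23 in control, 6.94, 6.84 and 6.44 in siG9a, and 6.76 and 6.80 in siGLP, a difference of -0.58. The ligand genes Jag1 (-0.36), Jag2 (-0.32) and Dll4 (-0.20) lay below control too. In the list of BMP, TGF-beta and activin signalling, which does not hold Smad5 or Ski, 5 of 32 were lower and 1 higher at that p, with the receptor gene Bmpr2 at -0.53, the antagonist gene Nog at -0.34, the ligand gene Tgfb2 at -0.34 and the receptor gene Acvr2a at 0.38. In the Wnt list, which does not hold Fzd3, 3 of 25 were higher and 1 lower, with the secretion factor gene Wls at 0.27, Dkk2 at 0.30, Tcf7l1 at 0.17 and Lef1 at -0.61. Among growth factors and receptors 1 of 32 was higher and 2 lower, with Kitl at 0.38 and Lifr at -0.42. Among immediate early and feedback genes 4 of 25 were higher and 2 lower, led by the Ras pathway inhibitor gene Spred2 at -0.64, which also lay below siGLP by -0.65 and passed there (limma adjusted p = 0.0409), with Ier3 at 0.30, Klf2 at 0.25 and Dusp1 at 0.36.

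Surface and cytoskeletal genes held some of the larger lower values. Of 29 integrins, cadherins and adhesion genes, 8 were lower and 2 higher at an unadjusted p under 0.05, with 11 and 2 without overlap (median -0.0409, and -0.0621 without Control 2). Adam12, a protease gene linked to myoblast fusion, gave 7.15 and 7.19 in control, 6.56, 6.39 and 6.06 in siG9a, and 6.76 on both siGLP arrays. The laminin receptor subunit gene Itga6 stood at -0.56, and the adhesion receptor genes Vcam1 and Cd44 each at -0.43. Of 34 genes of actin and SRF targets, 3 were lower and 1 higher. Tagln, which encodes the actin-binding protein transgelin, gave 8.63 and 8.76 in control, 8.11, 8.10 and 7.88 in siG9a, and 8.74 and 8.89 in siGLP. Cnn1, which encodes calponin, gave 8.38 and 8.53, then 7.59, 7.88 and 7.38, then 8.92 and 8.78. Neither passed against control, at -0.67 and -0.84, while both lay below siGLP past the threshold, Tagln by -0.78 and Cnn1 by -1.23 (limma adjusted p = 0.0478 and 0.0409). Actc1, the cardiac actin gene, stood at -0.61 and Wasf1 at 0.32, and the list's median was -0.0148. Collagen and matrix genes gave 3 higher and 4 lower of 39, with Col8a1 at 0.41, Col3a1 at -0.33 and Tnc at -0.31 beside Postn.

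Myoblast regulators and contractile genes were split, with 2 of 35 higher and 4 lower at an unadjusted p under 0.05, among them Myod1 (-0.68), Tnnt1 (-0.88), Srl (-0.33) and Myh4 (0.43), whose control level lay below the lower quartile of the arrays. Valine and branched-chain amino acid breakdown gave 4 higher and 1 lower of 25, with Acat1 at 0.37, Acadsb at 0.28 and the inhibitory kinase gene Bckdk at -0.36 beside Aldh6a1. NAD genes gave 2 and 2 of 19, with Sirt2 at 0.29 and the polymerase genes Parp1 at -0.38 and Parp2 at -0.20 beside Nmnat2. In the glycolysis and hypoxia list 3 of 28 were higher and 0 lower at that p, with 11 and 1 without overlap. Centrosome and cilium genes gave 2 higher and 3 lower of 36, with the gamma-tubulin gene Tubg1 at -0.43.

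Classes often named with loss of H3K9 methylation did not stand out in their counts. Of 27 germline and meiosis genes, 1 was higher and 0 lower at an unadjusted p under 0.05, which was Mov10l1 (0.29), a gene of the piRNA pathway, and 1 in each direction had arrays without overlap (median -0.0096). Of 22 imprinted genes, 0 were higher and 2 lower, led by Mest, which gave 6.49 and 6.44 in control and 5.97, 6.10 and 5.83 in siG9a (-0.50). Protocadherins and neuronal genes gave 2 and 2 of 30 (median -0.0208), with Map2 at 0.35 and Pcdhb2 at 0.32. Polycomb and DNA methylation genes gave 1 higher and 3 lower of 24, with the methyltransferase gene Ezh1 at 0.48, Ezh2 at -0.17, Bmi1 at -0.21 and Uhrf1 at -0.26. The median germline gene lay below the 50th percentile of level, and at low signal the array responds little to RNA amount, so small changes there may not be detectable.

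Limits apply to all of these values. With 2 control arrays, none of the 6 calls held when any 1 of the 7 arrays was left out (smallest limma adjusted p from 0.0787 without siG9a 1 to 0.426 without Control 1), with only the 5 compared arrays fitted (0.13), or with no moderation of the variance (0.068). The array signal is relative to the bulk of transcripts, off-target silencing by the siRNA was not tested, and protein and H3K9 methylation were not analysed here.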

How the data were processed

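RNA from 7 samples of C2C12 cells was measured on 1 single-colour whole-transcript Affymetrix array each, 2 Control, 3 siG9a and 2 siGLP, grouped by the siRNA named in the labels. The deposited log2 values per probe set were made by the authors with RMA and Partek, per the submitters' processing notes, and the log2 scale was taken from the range of the values. RMA corrects background, equalises distributions between arrays and compresses dim probe sets.

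Of 33649 probe sets, 23521 had 1 gene symbol in the platform annotation, 1814 several and 8314 none. Symbols were updated through RefSeq gene numbers (GRCm38.p6; 23328 matched). For 1082 genes with several probe sets the one with the highest mean was kept, which left 22180 genes, without a level filter. The test was limma's (version 3.58.1, R 4.3.3; lmFit and eBayes on all 7 arrays; residual df 4, moderated df 6.89), two-sided, with Benjamini-Hochberg adjustment over all genes and a threshold of 0.05. The precision is limited by the number of arrays. Members, lists and the rule for named genes were chosen with earlier results of these data known.

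Named genes were those that passed, the 15 higher and 15 lower with the smallest p without overlap of arrays, the 10 largest differences each way without overlap above the median level, and up to 4 members per list by p, with paralogs and partners of genes that passed. Predicted loci, smell receptors and small RNA genes were passed over. The Serpinb9 family and the cell type markers named lie outside these ranks. The fit was tested on simulated data. Alternatives covered the arrays in the fit, a replicate block, level filters, normalization, variance moderation, probe set choice and leaving out each array.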

Additional observations from a re-analysis of the deposited data

How the results depend on the processing

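The 6 genes that passed (Ehmt2, Tead2, Sdcbp, Api5, Eif5a2 and Klhl28) were all among those that passed when the test kept genes from the 30th percentile of level up (30 genes) or from the median level up (148), after quantile normalization (16), after cyclic loess (6), with trended and robust moderation (100) and with the mean of a gene's probe sets (6). The first 2 of these tested fewer genes and also moderated the variance from those genes alone. With the median filter 1956 genes had an unadjusted p under 0.05, against 1705 of genes above that level as reported. The cause of the differing counts was not tested for any of these settings. The count was 0 with only the control and siG9a arrays in the fit (smallest limma adjusted p = 0.13; 2245 genes at an unadjusted p under 0.05), 0 without moderation (0.068; 1997 genes), and 0 without any 1 of the 7 arrays (smallest limma adjusted p from 0.0787 without siG9a 1 to 0.426 without Control 1; 1832 to 2384 genes at an unadjusted p under 0.05), where fewer samples enter. Without 1 of the 2 Control or 2 siGLP arrays the lone sample is assumed to vary like the other groups. With the replicate number as a block 0 genes passed (smallest limma adjusted p = 0.163; 2170 genes at an unadjusted p under 0.05). The labels' numbers were not shown to pair the arrays, since deviations of same-numbered Control and siG9a arrays correlated at 0.136 and 0.00473. The number of genes without overlap, 5699 as reported, was 7761 to 11538 without 1 of the 5 arrays compared, by construction highest where 1 Control array remains (11178 and 11538), and its share of higher genes went from 54.4% to 47.0% after quantile normalization and 47.9% after cyclic loess. Over 177 named genes and 2809 alternative values, 0 changed direction, 2635 stayed on the same side of the threshold, 114 came to pass and 60 no longer passed. That direction was kept was largely fixed in advance. Leaving out 1 array cannot turn a gene picked because its arrays did not overlap. Genes added as list members were picked for a small p, whether or not their arrays overlapped, which also favours a kept direction. Changes to the siGLP arrays, level filter or moderation leave the difference itself unchanged. Most of the 177 genes had not passed as reported, so staying there is no sign of a stable result. Dim genes near the floor of the arrays limit what small changes can be seen.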
